A study of Mus musculus with 12 samples.

Results

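The 46 genes described here encode the proteins that license, unwind and copy DNA, process the lagging strand, supply deoxynucleotides and reassemble chromatin behind the fork. They were listed by name and sorted into 10 roles; no measured value enters the list's rule, but the list was drawn up with earlier results of these data known. All 46 had a probe on the array, and 45 passed the filter on dim spots, out of 12295 named genes and 22981 features in all that passed it. Thymidylate synthase (Tyms), which makes the thymidine nucleotide, was the gene that did not pass. Messenger RNA was measured on 12 single-colour arrays of mouse splenic B cells in 4 groups of 3. Control cells came from B1-8hi:Sub1fl/fl mice, and the knockout line was B1-8hi:Sub1fl/fl-Mb1-Cre, in which Cre from the Cd79a (Mb1) locus deletes Sub1 in the B lineage. Both genotypes therefore carry the floxed Sub1 alleles and the B1-8hi antigen receptor allele, which can give binding to the hapten NP. The share of B cells that bind NP is not given in the labels used here. Cells were either left without stimuli (resting, labelled naive) or cultured for 72 h with NP-ficoll, CD40 ligand and the cytokines IL-5, IL-4 and IL-2 (stimulated). No age, sex or pooling of animals is given in the labels used here, and nothing there states whether the 3 samples of a group are different mice, so the spread behind the p-values may be technical. The control has no Cre allele, so loss of Sub1, presence of Cre and the altered Cd79a locus cannot be told apart.

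Before S phase, the origin recognition complex, Cdc6 and Cdt1 load the MCM2-7 helicase onto DNA, and geminin (Gmnn) blocks further loading once replication has begun. Cdc45 and the GINS complex join MCM2-7 to form the active helicase, primase and polymerase alpha lay down primers, and polymerases delta and epsilon extend them on the sliding clamp PCNA. Resting B cells sit outside the cycle with less of this machinery than dividing cells. Antigen, CD40 and cytokine signals bring them into S phase, in large part through E2F factors acting on the promoters of these genes.

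Since E2F sites are a classic feature of replication gene promoters, 4 RefSeq promoters (GRCm38.p6, 250 bases before to 50 after the annotated start) are shown: Pole2, which had the largest rise on stimulation, Mcm5 of the MCM helicase, Fen1, the single gene called for the knockout, and Gins3, which had the smallest difference. Capitals mark 7-letter E2F core matches (TTCCCGC or TTGGCGC or TTCGCGC or TTGCCGC) on either strand, and overlapping matches run together.
Pole2, chr12:69228141-69228440, minus strand: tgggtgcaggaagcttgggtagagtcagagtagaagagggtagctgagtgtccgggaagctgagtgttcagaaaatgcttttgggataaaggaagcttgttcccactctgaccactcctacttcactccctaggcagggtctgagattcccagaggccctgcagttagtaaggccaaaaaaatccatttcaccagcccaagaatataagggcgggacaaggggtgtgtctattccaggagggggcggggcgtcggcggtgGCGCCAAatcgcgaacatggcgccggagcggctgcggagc
Mcm5, chr8:75109259-75109558, plus strand: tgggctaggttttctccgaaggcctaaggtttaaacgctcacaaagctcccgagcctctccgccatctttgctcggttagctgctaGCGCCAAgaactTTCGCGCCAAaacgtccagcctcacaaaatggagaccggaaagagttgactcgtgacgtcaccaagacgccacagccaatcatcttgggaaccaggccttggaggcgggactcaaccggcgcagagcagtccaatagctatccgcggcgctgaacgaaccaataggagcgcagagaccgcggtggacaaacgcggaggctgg
Fen1, chr19:10203872-10204171, minus strand: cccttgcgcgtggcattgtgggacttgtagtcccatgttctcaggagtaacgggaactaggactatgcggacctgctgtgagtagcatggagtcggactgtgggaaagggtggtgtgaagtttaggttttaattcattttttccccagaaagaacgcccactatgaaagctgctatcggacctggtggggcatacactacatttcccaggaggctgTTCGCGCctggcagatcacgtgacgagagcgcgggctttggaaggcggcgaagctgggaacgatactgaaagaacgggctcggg
Gins3, chr8:95633309-95633608, plus strand: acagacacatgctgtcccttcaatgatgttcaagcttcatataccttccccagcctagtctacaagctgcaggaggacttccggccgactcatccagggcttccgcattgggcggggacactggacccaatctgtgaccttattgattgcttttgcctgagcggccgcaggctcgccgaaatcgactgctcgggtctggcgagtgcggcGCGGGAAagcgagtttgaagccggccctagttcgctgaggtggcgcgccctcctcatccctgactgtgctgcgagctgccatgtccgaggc
Mcm5 held 3 matches, the last pair overlapping, and the other 3 windows held 1 each; a further annotated start of Fen1 had none. Promoters were matched for 38 of the 46 genes, and 24 of these (63.2%) held a 7-letter match in a window, against 10.9% of 27025 genes and 9.57% of 32851 windows in the table. The CCAAT box, searched as CCAAT on both strands, was in 24 of the 38 genes (63.2%), against 41.1% of all genes. The median stimulation change in control cells was 2.34 (log2) for the 24 genes with an E2F match and 1.93 for 13 measured genes without. Gins3, Pold1, Pold3 and Rfc1, the 4 genes that did not pass the test for stimulation in control cells, all held a match. A match describes letters in a window and is not a measured binding site.

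Levels are given as log2 of the spot's processed signal minus the 75th percentile of its array, so 0 is the array's 75th percentile; values for a gene are listed for replicates 1, 2 and 3 in that order. Because probes differ in affinity, levels are compared between arrays and never between genes. A change is called at an adjusted p under 0.05 (limma, Benjamini-Hochberg over 22981 features). Between 24.3% and 76.8% of spots per array were well above background, and no spot was saturated. Of the 45 measured genes, 39 were well above background on all 12 arrays. Tyms was above background on 5 arrays, spread over all 4 groups, at levels between -3.46 and -1.37, and was not tested. Sub1 itself, the gene deleted by Cre, differed between knockout and control by -1.21 in stimulated cells (SE 0.19, adjusted p = 0.0114) and by -0.38 in resting cells (adjusted p = 0.268), and remained well above background in every group. Cd79a, the host of Cre, differed by -1.10 in stimulated (adjusted p = 0.0343) and -1.54 in resting cells (adjusted p = 0.0948). All 8 B cell markers were above background on every array but 1, where 7 were.

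**Figure D1:**
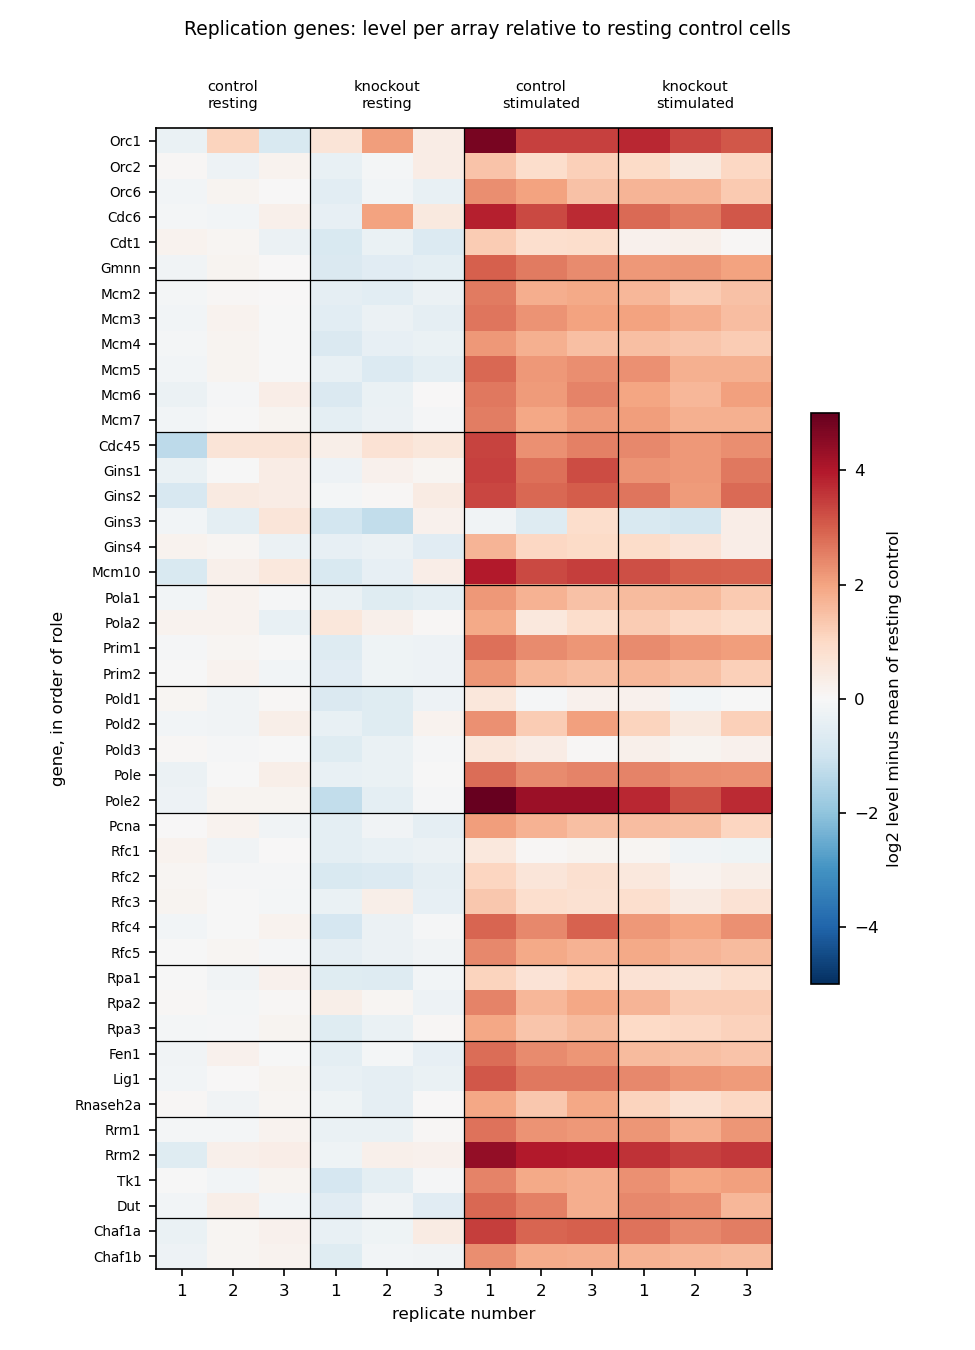
Heat map of the 45 measured genes (rows, in order of role, with lines between roles) on the 12 arrays (columns, by group and replicate). Colour is the log2 level minus the mean of the 3 resting control arrays. Nearly all rows are red on the 6 stimulated arrays and pale on the 6 resting ones; Gins3, Pold1, Pold3 and Rfc1 stay pale throughout.

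Most of the machinery was higher in stimulated than in resting cells in both genotypes. In control cells 41 of 45 genes rose and none fell, with a median change of 2.06 (log2) and a range from 0.022 to 4.52. Over all features the median was 0.038, and 14.7% were called higher and 3011 of 22981 lower. In knockout cells 40 of 45 rose and none fell, with a median of 1.95 against 0.10 over all features. Of all features 10.9% were called higher and 1194 of 22981 lower. Of the 39 genes above background on all 12 arrays, 35 rose in each genotype. The shares just given are over all 22981 features, dim ones included, and not over features that pass this stricter filter. On the slide that held replicates 1 and 2 the control median was 2.23, and on the slide with replicate 3 it was 1.86. Genes are not independent replicates, and the 2 comparisons use different samples. In whole populations, a larger share of cells in cycle and more RNA per cycling cell cannot be told apart. The labels used here give no culture time for resting cells, so the stimuli and the 72 h in culture cannot be told apart either.

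**Figure D2:**
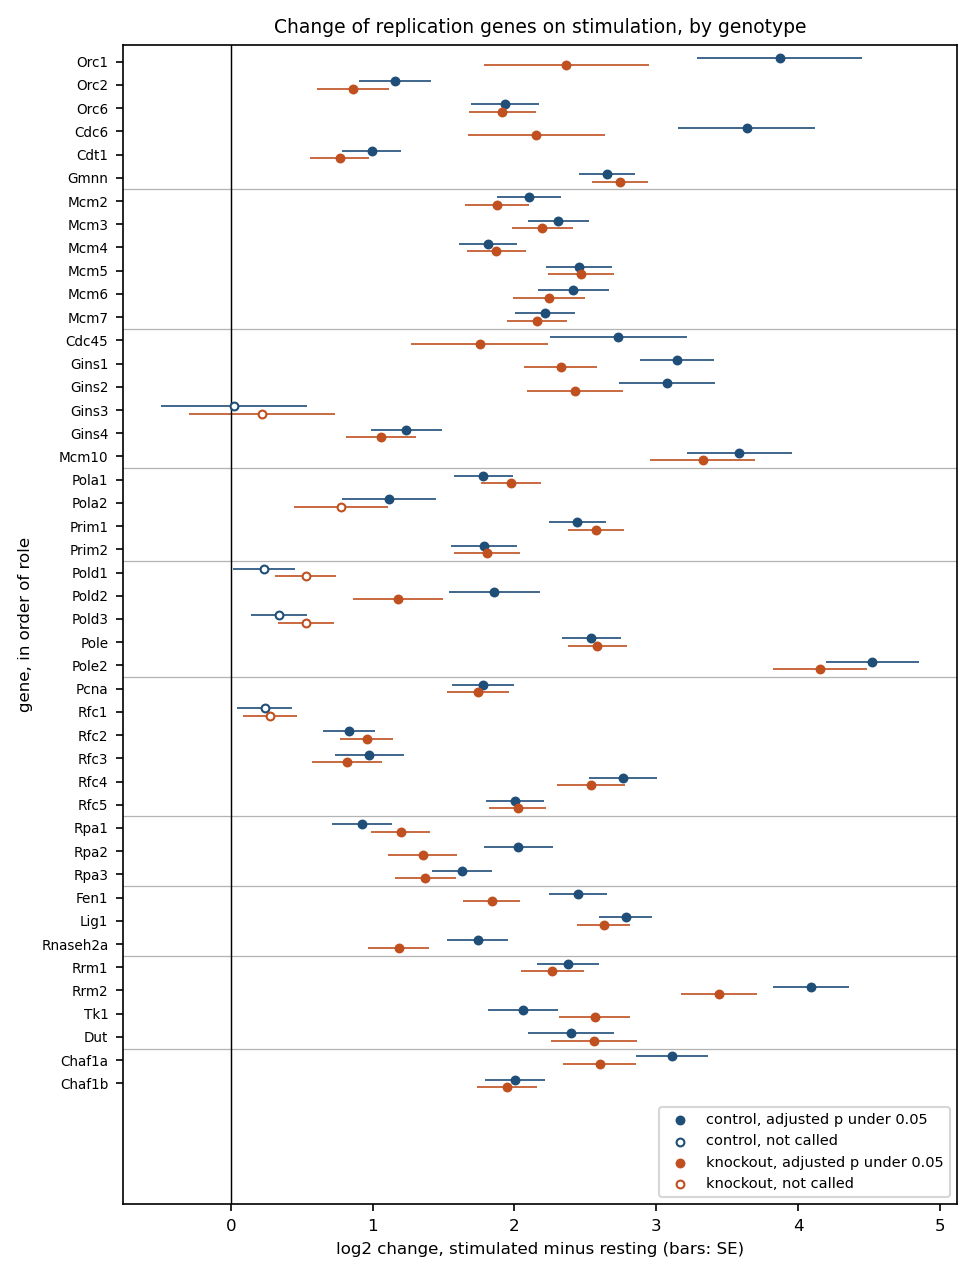
Log2 change on stimulation (horizontal axis, bars are SE) of the 45 genes in control (dark blue) and knockout cells (orange). Filled points have an adjusted p under 0.05. Pole2 and Rrm2 lie farthest right, and Gins3, Pold1, Pold3 and Rfc1 lie near 0 with open points.

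All 6 origin licensing genes rose in both genotypes. Orc1, the largest subunit of the origin recognition complex, was at -4.28, -2.84 and -4.71 in resting control and -3.31, -1.85 and -3.57 in resting knockout cells, not well above background on any of these 6 arrays. Its stimulated levels were 0.81, -0.51 and -0.52 in control and -0.18, -0.59 and -0.85 in knockout cells, above background on 2 and 3 arrays. A detection floor was set per array as the lowest signal of any probe counted as above background, or the spot's own level where higher. Against the mean of this floor, Orc1 was 7.96-fold higher in stimulated control and 3.53-fold higher in stimulated knockout cells. The floor is not specific to the Orc1 probe, so these values are not lower bounds. In other settings the Orc1 change fell as low as 1.60 (log2) in control and 1.23 in knockout cells. Orc1 passed the filter on dim spots through the stimulated knockout group alone, so its calls are partly fixed by that filter. Orc2 and Orc6, further subunits of the complex, changed by 1.16 and 1.93 in control cells. Cdc6, the loader ATPase, was at -2.18, -2.18 and -1.83 in resting and 1.81, 1.26 and 1.66 in stimulated control cells, and at -2.48, -0.068 and -1.58 and 0.79, 0.52 and 1.03 in knockout cells. At rest it was above background on 1 control and 2 knockout arrays, and it too passed the filter through stimulated groups alone, so the size of its rise is uncertain.

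Cdt1, which brings MCM2-7 to the origin, had the smallest rise of the licensing genes. Its levels were 4.88, 4.81 and 4.43 in resting and 5.99, 5.54 and 5.57 in stimulated control cells, a change of 0.99 (SE 0.21, adjusted p = 0.00441). In knockout cells they were 3.95, 4.36 and 4.04 at rest and 4.92, 4.95 and 4.78 after stimulation, a change of 0.77 (adjusted p = 0.0285). Resting and stimulated arrays did not overlap within either genotype, but the stimulated knockout arrays overlapped the resting control arrays. Geminin, the inhibitor of Cdt1, rose far more: it went from 0.10, 0.42 and 0.30 to 3.27, 2.87 and 2.65 in control cells, a change of 2.65 (SE 0.20). In knockout cells it went from -0.45, -0.31 and -0.23 to 2.46, 2.48 and 2.30, a change of 2.74.

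The 6 subunits of the MCM2-7 helicase all rose, by between 1.81 (Mcm4) and 2.45 (Mcm5) in control cells and between 1.87 (Mcm4) and 2.47 (Mcm5) in knockout cells. Mcm5 was at 3.23, 3.52 and 3.35 in resting and 6.24, 5.52 and 5.70 in stimulated control cells, 5.47-fold higher (SE 0.23 log2, adjusted p = 3.65e-05). In knockout cells Mcm5 was at 3.002, 2.70 and 2.87 and 5.66, 5.16 and 5.16. Resting and stimulated arrays were far apart in both genotypes, with no overlap. The SE of the 6 subunits' changes lay between 0.21 and 0.25.

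Genes that turn the loaded MCM ring into a working helicase rose, apart from Gins3. Mcm10, needed to start unwinding, changed by 3.58 (SE 0.37, adjusted p = 5.77e-05) in control cells, from -0.78, 0.23 and 0.51 to 3.97, 3.29 and 3.46. In knockout cells it went from -0.76, -0.42 and 0.33 to 3.21, 2.99 and 2.93, a change of 3.33. Cdc45 changed by 2.73 in control and 1.76 in knockout cells, with SE 0.48, and passed the filter through the stimulated groups alone; in resting control cells 1 array lay at -3.46, not above background, and the other two near -1.5.

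The 4 GINS subunits, which work as 1 complex, passed the test in 3 cases. Gins1 (Psf1) went from -0.34, -0.038 and 0.36 to 3.41, 2.74 and 3.27 in control cells, a change of 3.15 (SE 0.26). In knockout cells it went from -0.26, 0.20 and 0.11 to 2.25, 2.15 and 2.62, a change of 2.33. Gins2 changed by 3.08 and Gins4 by 1.24 in control cells. Gins3 was at 5.07, 4.69 and 5.81 in resting and 5.02, 4.56 and 6.05 in stimulated control cells, so the groups overlapped and the change was 0.022 (95% interval -1.12 to 1.16, adjusted p = 0.986). Its knockout levels were 4.27, 3.95 and 5.40 at rest and 4.45, 4.31 and 5.53 after stimulation. Replicate 3, on the second slide, was the highest array in all 4 groups, and the upper end of the interval is just below the change of Gins4. That interval comes from the fit without a block, where the SE was 0.51. In a fit with the replicate number as a block, the SE in control cells was 0.15 and the change stayed at 0.022 (adjusted p = 0.936 in limma). Gins3 was chosen for its lack of change and has a single probe on the array.

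The 4 genes of primase and polymerase alpha, which make the primers, rose in control cells by 1.11 (Pola2) to 2.44 (Prim1). Prim1, the catalytic primase subunit, went from 1.94, 2.07 and 1.95 to 4.73, 4.36 and 4.21 in control and from 1.32, 1.77 and 1.73 to 4.34, 4.15 and 4.06 in knockout cells. Pola2 missed the threshold in knockout cells, at 0.78 (adjusted p = 0.158), although its groups did not overlap. Pole2, the second subunit of the leading strand polymerase epsilon, had the largest change of all 45 genes in both genotypes. It went from -0.99, -0.60 and -0.58 to 4.29, 3.54 and 3.57 in control cells, 23.0-fold (SE 0.33 log2, adjusted p = 1.05e-05). In knockout cells it went from -1.96, -1.22 and -0.79 to 3.04, 2.45 and 3.0005, 17.8-fold. At rest in knockout cells Pole2 was well above background on 2 of 3 arrays, so the size of this rise is less certain. Pole, the catalytic subunit, changed by 2.54.

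Of lagging strand polymerase delta, Pold2 rose by 1.86 (SE 0.32), while the catalytic subunit Pold1 differed by 0.24 (95% interval -0.25 to 0.72) and Pold3 by 0.34 (-0.100 to 0.78) in control cells, neither past the test. In knockout cells Pold1 and Pold3 differed by 0.53 and 0.53 (adjusted p = 0.141 and 0.102, unadjusted p = 0.035 and 0.022 in limma), and all 3 stimulated arrays lay above all 3 resting arrays for each. Both were well above background on every array. Among the subunits of the RFC clamp loader, Rfc1 did not pass the test, at 0.24 in control (95% interval -0.19 to 0.67) and 0.28 in knockout cells (adjusted p = 0.43), where its groups did not overlap either. Rfc2 and Rfc3 rose by 0.83 and 0.98, Rfc5 by 2.002, and Rfc4 by 2.77 (SE 0.24). Rfc4 was at 2.21, 2.32 and 2.51 in resting and 5.27, 4.76 and 5.30 in stimulated control cells. Its knockout levels were 1.52, 2.05 and 2.28 and 4.51, 4.33 and 4.63, and another probe of Rfc4 changed by 2.95 in control cells. PCNA, the clamp they load, rose by 1.78 in control and 1.75 in knockout cells.

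**Figure D3:**
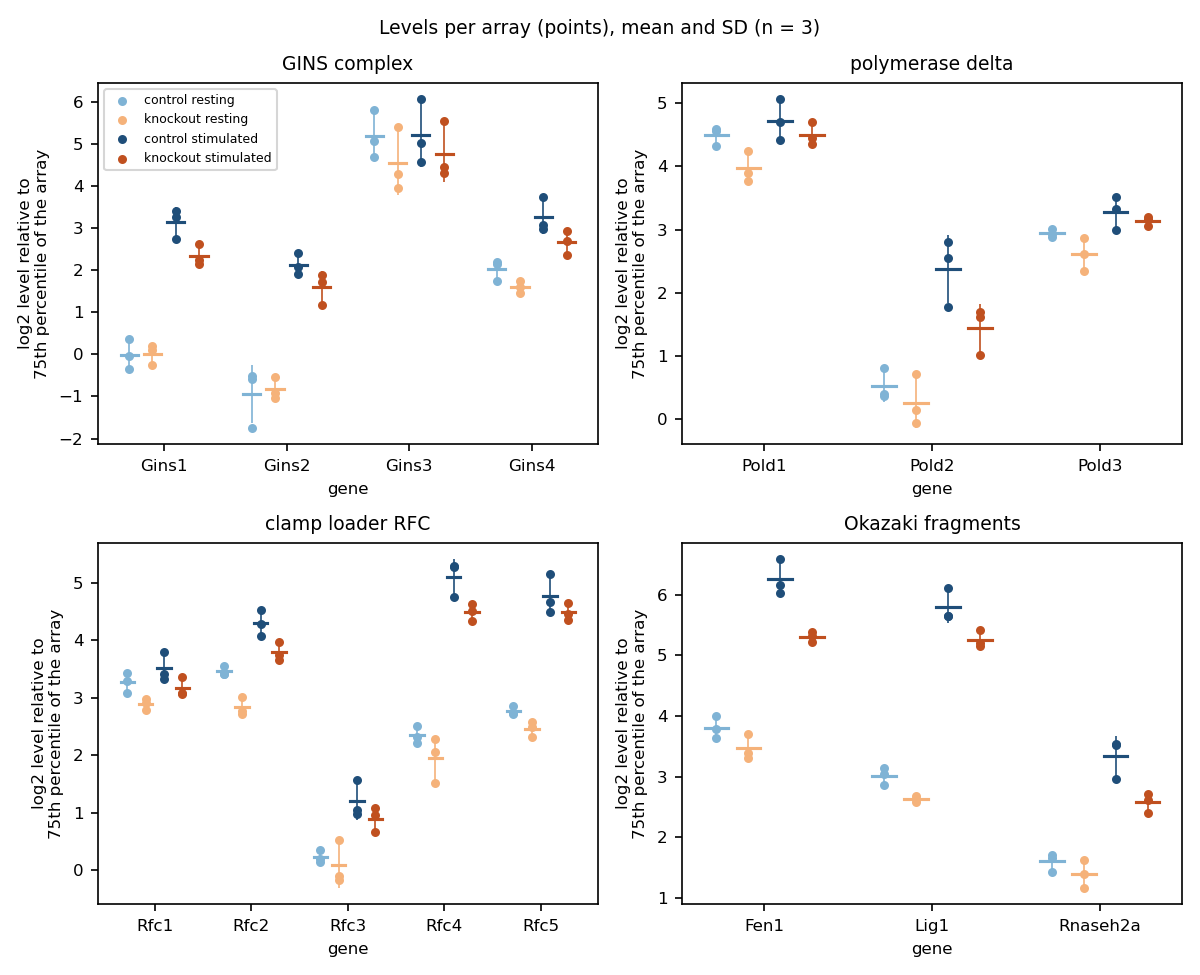
Levels per array (points; log2 relative to the array's 75th percentile) of subunits of GINS, polymerase delta, the clamp loader RFC and the Okazaki fragment genes, by group, with the mean (line) and SD (bar, n = 3). Heights of different genes are not comparable. Gins3, Pold1, Pold3 and Rfc1 overlap between resting and stimulated control cells while their partners rise; in knockout cells the stimulated points of Pold1, Pold3 and Rfc1 lie above all resting ones, by less than 0.6 on average. The stimulated knockout points of Fen1, Lig1 and Rnaseh2a lie below all stimulated control points.

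RPA, which coats single-stranded DNA, rose in all 3 subunits, by 0.93 (Rpa1), 2.03 (Rpa2) and 1.63 (Rpa3) in control cells. Rpa2 was at 0.90, 0.73 and 0.89 in resting and 3.31, 2.51 and 2.78 in stimulated control cells, and at 1.15, 0.92 and 0.60 and 2.52, 2.10 and 2.11 in knockout cells. Resting and stimulated arrays were well separated in both genotypes.

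The 3 genes that remove primers and join Okazaki fragments also rose. Lig1, the ligase that seals the lagging strand, went from 2.87, 3.04 and 3.14 to 6.11, 5.65 and 5.65 in control cells, 6.89-fold (SE 0.19 log2, adjusted p = 7.64e-06). In knockout cells it went from 2.63, 2.58 and 2.69 to 5.41, 5.21 and 5.16. Fen1, the flap endonuclease, changed by 2.45 in control and 1.84 in knockout cells, and Rnaseh2a, the catalytic subunit of RNase H2, by 1.74 and 1.18.

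All 4 measured genes of nucleotide supply rose, by 2.06 (thymidine kinase Tk1) to 4.09 (Rrm2) in control cells. Rrm2, the cycle-regulated small subunit of ribonucleotide reductase, went from 1.67, 2.50 and 2.59 to 6.67, 6.20 and 6.17, 17.1-fold (SE 0.27 log2, adjusted p = 6.98e-06). In knockout cells it went from 2.05, 2.50 and 2.47 to 5.86, 5.69 and 5.79, 10.9-fold. Its partner Rrm1 changed by 2.38 and 2.27, and Dut, which keeps uracil out of DNA, by 2.40 and 2.56. Chaf1a and Chaf1b of the chromatin assembly factor CAF-1, which places histones on new DNA, rose by 3.11 and 2.004 in control cells. Chaf1a went from -0.088, 0.34 and 0.45 to 3.69, 3.13 and 3.21 in control and from -0.13, 0.031 and 0.64 to 2.95, 2.62 and 2.78 in knockout cells.

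Related genes were set beside these, with up to 3 called genes of the smallest p named for each list. Of 25 further replication factors, 16 rose and 1 fell in control cells (median 1.42) and the called genes with the smallest p were the histone chaperone Asf1b (2.85) and the fork protection pair Tipin (2.56) and Timeless (2.55). Of 24 further enzymes of nucleotide and one-carbon metabolism, 14 rose and 1 fell (median 0.96), with the mitochondrial serine enzyme Shmt2 at 2.60 and the mitochondrial thymidine kinase Tk2 falling by 2.01. Of 13 E2F, DP and pocket protein genes, 9 rose and none fell, among them E2f8 (3.42), E2f1 (2.09) and Tfdp1 (2.83). All 15 measured mitosis genes rose, by a median of 3.68 in control and 3.48 in knockout cells, with Ube2c at 4.22, Cdc20 at 3.86 and Ccnb2 at 3.60. In knockout cells the counts of risen genes were 14 of 25, 11 of 24, 7 of 13 and 15 of 15. Of all features, 14.7% were called higher in control and 10.9% in knockout cells, and 3011 and 1194 of 22981 were called lower.

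In stimulated cells, the knockout means lay below control for nearly all of the machinery, but most of these differences were not called. Fen1 was lower by the test, and 0 of the 45 genes were called higher; 2.26% of all features were called lower and 1.21% higher. The change was negative for 44 of 45 genes, with Tk1 at 0.046, and for 11716 of all 22981 features. The median was -0.47 against -0.017 over all features. For 21 of the 45, all 3 knockout arrays lay below all 3 control arrays, against 14% of all features. An unadjusted p under 0.05 in limma was reached by 15 of the 45, against 22.1% of all features. The median was -0.53 on the slide with replicates 1 and 2 and -0.38 on the other. Among features above background on all 12 arrays, the median was -0.49 over 39 replication genes and -0.31 over all such features. In a refit on these 10275 features alone, 7 of the 39 genes were called lower, against 13.4% of the features; in the fit over 22981 features 1 of the 39 was.

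**Figure D4:**
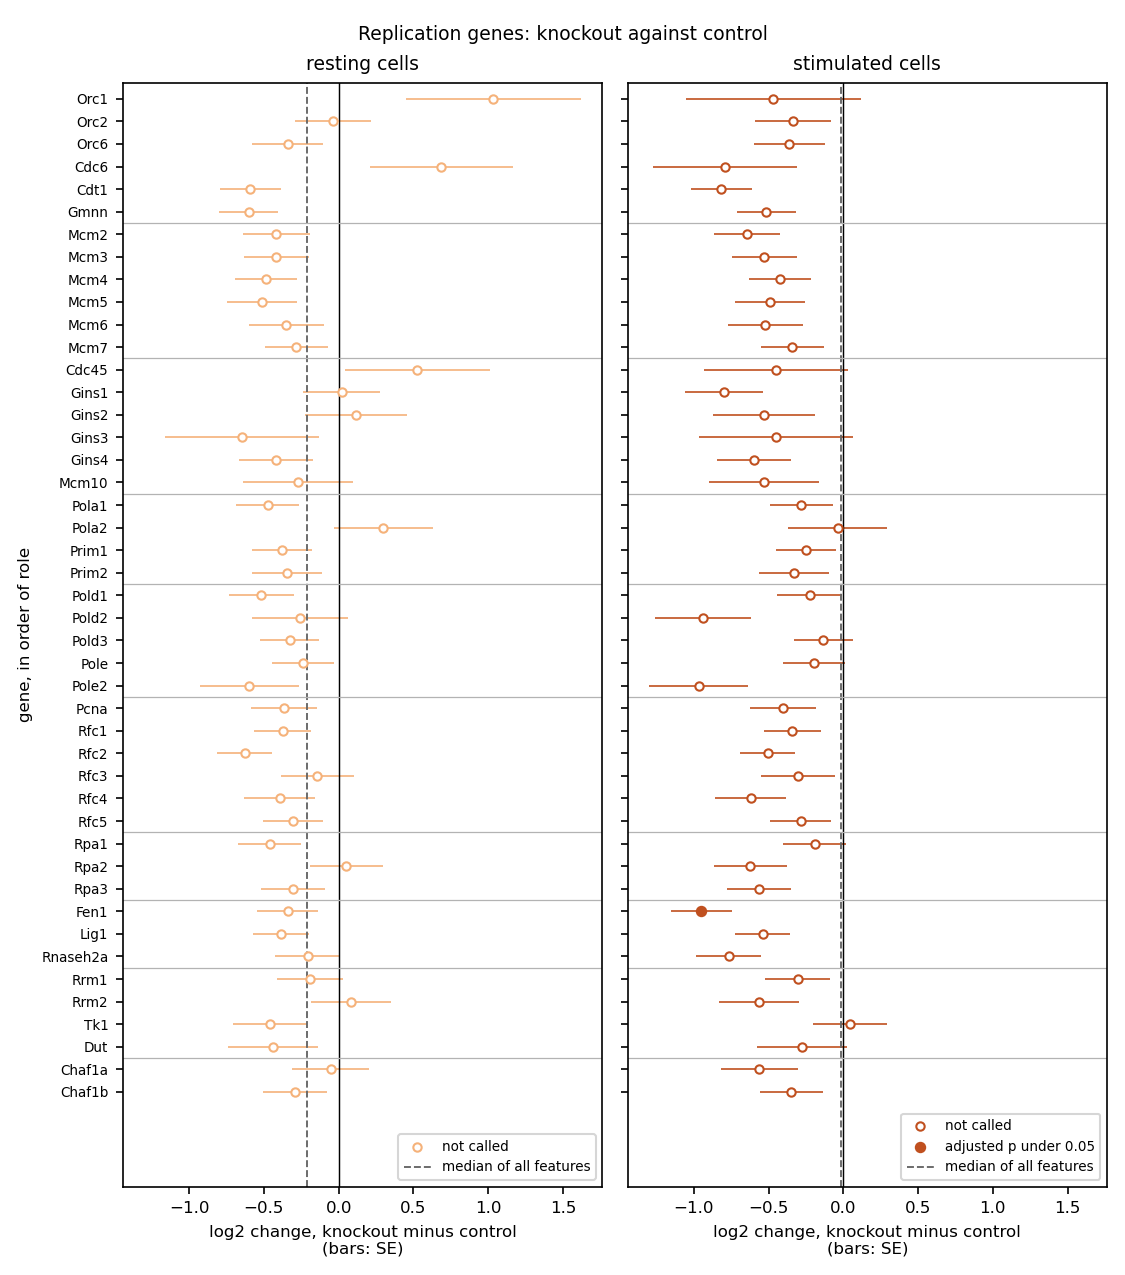
Log2 change of knockout against control (horizontal axis, bars are SE) for the 45 genes in resting cells (left) and stimulated cells (right). The dashed line is the median of all features, -0.21 at rest and -0.017 after stimulation; Fen1 in stimulated cells is the single filled point, and 44 of 45 points on the right lie below 0.

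Fen1, the endonuclease that trims the displaced flap of each Okazaki fragment, was at 6.58, 6.16 and 6.03 in stimulated control and 5.38, 5.31 and 5.23 in stimulated knockout cells. All 3 control arrays lay above all 3 knockout arrays. Its change was -0.95 (SE 0.20, 1.93-fold lower, adjusted p = 0.0323), and -1.02 and -0.81 on the 2 slides. At rest its levels were 3.64, 4.01 and 3.78 in control and 3.31, 3.70 and 3.39 in knockout cells, which overlapped. The call was lost in 18 of 27 other settings, including quantile normalization (-0.51, adjusted p = 0.202) and leaving out stimulated control replicate 1, the brightest array for this gene (-0.79, adjusted p = 0.114); the change stayed negative in all 27.

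The other Okazaki fragment genes lay on the same side. Rnaseh2a was at 3.55, 2.96 and 3.53 in stimulated control and 2.72, 2.40 and 2.62 in stimulated knockout cells, with no overlap, a change of -0.77 (SE 0.22, adjusted p = 0.0852). Its 4 probes did not agree: a second bright probe gave -0.77, and the remaining pair gave -0.077 and -0.098. At rest Rnaseh2a was at 1.67, 1.44 and 1.71 in control and 1.40, 1.17 and 1.62 in knockout cells, which overlapped. Lig1 differed by -0.54 (adjusted p = 0.136), with no overlap between the stimulated groups listed above.

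Among the licensing genes, Cdt1 differed by -0.82 in stimulated cells (SE 0.21, adjusted p = 0.059) and by -0.59 in resting cells (adjusted p = 0.223), with knockout arrays below control arrays in both states. Geminin differed by -0.52 and -0.60 (adjusted p = 0.17 and 0.215), again with no overlap in either state. Gins1 differed by -0.80 after stimulation (SE 0.26, adjusted p = 0.119), with no overlap, and by 0.019 at rest, where the groups overlapped. Pole2 and Pold2 had differences close to that of Fen1, at -0.97 and -0.94, but larger SE (0.33 and 0.32) and adjusted p = 0.134 and 0.135. The 6 MCM subunits differed by -0.64 (Mcm2) to -0.34 (Mcm7), none called, and Mcm2, Mcm3 and Mcm6 had groups that did not overlap. Primase and polymerase alpha genes differed by -0.33 (Prim2) to -0.039 (Pola2) with none called, and the groups of all 4 overlapped. Over the 45 genes, the 95% interval stayed within 1 log2 unit of 0 for 23 and reached beyond it for 22.

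Same-numbered replicates deviated together in stimulated cells, so a second fit took the replicate number as a block. Then 4 genes were called lower: Fen1 (adjusted p = 0.0264), Rnaseh2a (0.0240), Pold2 (0.0356) and Cdt1 (0.0369). With this block 4.53% of all features were called lower. The block covered all 12 arrays. Same-numbered replicates did not all deviate together at rest (correlations -0.11, 0.21 and 0.39) or for stimulation in knockout cells (0.0035, 0.15 and 0.39). These 4 calls therefore rest on a pairing that was not seen in every comparison, and replicate 3 was also on its own slide.

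In resting cells, 0 of 45 genes were called by limma, as were 0.0131% of all features in either direction (3 of 22981). At an unadjusted p under 0.05 there were 6 of 45, against 19.7% of all features. They were Cdt1, Gmnn, Mcm4, Pola1, Pold1 and Rfc2, all lower in knockout cells. The change was negative for 37 of 45 genes and for 14285 of all 22981 features. The median was -0.34 against -0.21 over all features. Knockout arrays lay wholly below control arrays for 18 of 45, against 26.7% of all features. Among features above background on all 12 arrays, the medians were -0.35 for the 39 replication genes and -0.35 for all features.

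Rfc2, a clamp loader subunit, had the smallest resting p. It was at 3.55, 3.41 and 3.42 in control and 2.72, 2.78 and 3.01 in knockout cells at rest, a change of -0.63 (SE 0.18, adjusted p = 0.2). After stimulation it was at 4.53, 4.08 and 4.28 and 3.97, 3.65 and 3.75, a change of -0.51 (adjusted p = 0.155), and the groups did not overlap in either state. Geminin's resting arrays, listed above, did not overlap either. The highest resting differences were those of Orc1 (1.04, SE 0.58) and Cdc6 (0.69, SE 0.48), both at or near background; for Cdc6, knockout replicate 2 at -0.068 stood above the other knockout arrays at -2.48 and -1.58.

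The genotypes' responses to stimulation were compared directly through the interaction of the 2 factors. None of the 45 genes was called by limma, as against 0.144% of all features, and 1 had an unadjusted p under 0.05 (Gins1, -0.82, SE 0.37, adjusted p = 0.464), against 10.6% of all features. The median was -0.16, against 0.076 over all features, where a negative value is a smaller rise in knockout cells. Its sign was not stable: it was 0.034 under quantile normalization, 0.096 without both control replicate 1 arrays and 0.059 without stimulated control replicate 1. For Fen1 the interaction was -0.61 (95% interval -1.25 to 0.027). For the 6 MCM subunits the intervals together ran from -0.96 to 0.75, so a difference in response of 1 log2 unit lay outside them. For Orc1 the interval ran from -3.33 to 0.32. In all, 27 of the 45 intervals stayed within 1 log2 unit of 0.

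The size of the genotype difference depended on the scaling. Under quantile normalization, normexp background correction and scaling to the 75th percentile of spots detected on all arrays, the stimulated median of the replication genes was -0.12, -0.092 and -0.063, with 0 genes called in each. All features moved as well, to medians of 0.097, 0.042 and 0.39. The replication genes thus lay below all features by 0.21, 0.13 and 0.45, against 0.45 as first scaled. Signs of single genes turned in 1 or more of 27 settings for 20 genes in stimulated and 24 in resting cells. The rise on stimulation was less touched: 34 of the 41 control calls and 28 of the 40 knockout calls were made in every setting.

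**Figure D5:**
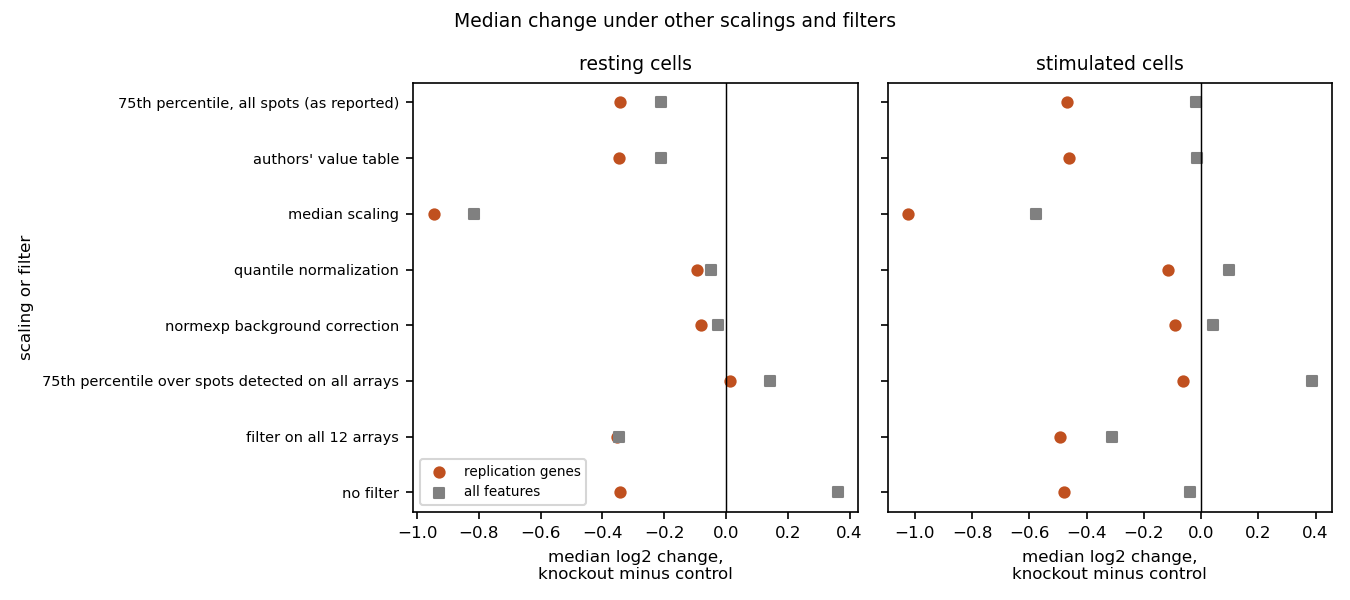
Median log2 change of knockout against control (horizontal axis) for the replication genes (circles) and all features (squares) under each scaling or filter, in resting and stimulated cells. In stimulated cells the circle lies left of the square in each setting shown; in resting cells with the filter on all 12 arrays the 2 symbols coincide.

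Markers of other cells differed with genotype. Of 10 macrophage and granulocyte markers, 9 were measured; their median knockout change was 1.50 at rest with 0 called, and 2.30 after stimulation with 3 called higher (C1qa, C1qb and Adgre1). The log2 of their summed level ran from 5.43 to 6.22 in resting control, 6.26 to 7.07 in resting knockout, 3.40 to 4.71 in stimulated control and 4.76 to 5.14 in stimulated knockout cells. T cell markers (7 of 7 measured) differed by a median of 0.51 and 0.78, NK cell markers (5 of 6) by 1.13 and 1.57, and erythroid markers (3 of 6) by 2.23 and 0.30. At rest 0 of these were called. After stimulation 1 T cell, 2 NK cell and 1 erythroid marker were called higher in knockout cells, against 1.21% of all features. The stimulated erythroid changes ran from 0.20 to 4.63. B cell markers (8 of 8) differed by -0.54 and 0.036. Of 5 plasma cell markers 4 were called lower in stimulated knockout cells, against 2.26% of all features. Their median was -1.58, and all 5 changes were negative. The part of these cell type markers in the differences of the replication genes was not tested.

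The related lists gave few calls between genotypes. In stimulated cells, 0 of 25 further replication factors, 0 of 13 E2F, DP and pocket protein genes and 0 of 15 mitosis genes were called, with medians of -0.41, -0.29 and -0.50. At an unadjusted p under 0.05 there were 3, 0 and 3, and 6 of the 24 further nucleotide enzymes, against 22.1% of all features. Of the 24 further nucleotide enzymes 2 were called lower, against 2.26% of all features. They were Impdh1, of guanine nucleotide synthesis (-1.72, SE 0.28, adjusted p = 0.0127), and Shmt2 (-1.21, SE 0.22, adjusted p = 0.0194). At rest 0 genes of the 4 lists were called by limma; at an unadjusted p under 0.05 there were 8 further replication factors, 3 nucleotide enzymes, 0 E2F family genes and 0 mitosis genes, against 19.7% of all features.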

How the data were processed

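Total RNA of 12 samples was hybridised to single-colour Agilent arrays, 3 per group. The deposited values are spot intensities from Feature Extraction (10.7.3.1 per the file headers, 9.1 per the submitters' processing notes), with background subtracted by the authors' scanner software. The authors' deposited value table holds the same intensities, on the linear scale, to within rounding (under 0.5%) and was an alternative. Here log2 intensity was centred on the 75th percentile of each array's non-control spots, with outlier spots left out and no offset. Features had a probe well above background on all 3 arrays of 1 or more groups, and each gene was represented by its brightest probe. The number of arrays, 3 per group, limits the precision.

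All 12 arrays were fitted together with limma 3.58.1 in R 4.3.3 (lmFit, eBayes; 8 residual degrees of freedom), with Benjamini-Hochberg adjustment over 22981 features. The scripts were tested on simulated data. The 46 genes and the other lists were chosen with earlier results of these data known. Values on every array are given for the member of each role with the largest called stimulation change in control cells, members called in a knockout comparison, up to 6 members with non-overlapping genotypes (smallest p first) and members below background in a group; from other lists, up to 3 called genes with the smallest p. Gins3 was added after its values were seen. Replicates 1 and 2 were on the first slide and 3 on the second. The reported fits took no pairing of samples into account, and a block on replicate number was run as an alternative. Same-numbered samples were said to deviate together where the correlations of their deviations over features all exceeded 0.1. These correlations were 0.35, 0.33 and 0.48 for stimulated knockout against control, and 0.42, 0.43 and 0.51 for stimulation in control cells. At rest, for knockout against control, they were -0.11, 0.21 and 0.39. For stimulation in knockout cells they were 0.0035, 0.15 and 0.39, which did not meet this rule either. Alternatives were scaling, background correction, filters, blocks, slide 1 alone, fits of the compared groups only and leaving out each array. No genome was used; promoters came from a RefSeq table (GRCm38.p6) and no coordinate of the array annotation is given.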

Additional observations from a re-analysis of the deposited data

How the results depend on the processing

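The counts of called genes in resting knockout cells (0), for stimulation in control (34 to 41) and knockout cells (29 to 42) and for the interaction (0) stayed within 1.5 times those reported in all 27 alternatives that were run (26 for the interaction). In stimulated knockout cells 7 genes were called with the filter on all 12 arrays, 4 with the replicate block and with a robust trended prior, 2 with the slide block, and 0 under quantile normalization, the 75th percentile over spots detected on all arrays, normexp, no filter, slide 1 alone, the compared groups alone, array weights, and without both control replicate 1 arrays; leaving out 1 array gave 0 to 4. Fewer features and fewer arrays enter some of these fits; otherwise the cause was not tested. The stimulated median of -0.47 became -0.12 (quantile), -1.02 (median scaling), -0.063 (spots detected on all arrays), -0.092 (normexp) and -0.28 without both control replicate 1 arrays, and lay between -0.61 and -0.28 with 1 array left out. The resting median of -0.34 became -0.095, -0.95, 0.012 and -0.080 under the same 4 scalings, and lay between -0.40 and -0.23 with 1 array left out. The stimulation median in control cells became 1.79 (quantile), 1.68 (spots detected on all arrays), 1.60 (normexp) and 1.82 without control replicate 1, and lay between 1.85 and 2.19 with 1 array left out; in knockout cells it became 1.76, 1.61 and 1.58 under the 3 scalings and lay between 1.83 and 2.03. The interaction median became 0.034 (quantile) and 0.096 without control replicate 1, and lay between -0.23 and 0.059 with 1 array left out. The replicate block changed no count in the resting, stimulation or interaction comparisons. Members at or near background (Orc1, Cdc6, Cdc45, Pola2, and Pole2 in resting knockout cells) have wide errors, and Tyms could not be tested.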
